A study of Rattus norvegicus with 8 samples.

Results

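The baseline transcriptome of the thoracic aorta was described in 4 control Wistar libraries, 4 of the 8 samples in the series, chosen by their labelled group. Wistar is an outbred laboratory strain, the rats were 7 to 8 weeks old, and the labels name no treatment, allele or sex for them. The other 4 samples came from the GK strain, which was not analysed here. Total RNA was sequenced, and the authors deposited counts and FPKM (fragment counts scaled to transcript length and library total) for 19238 genes and 24300 lncRNA (long non-coding RNA) transcripts. The libraries are numbered 7, 8, 9 and 10 in the labels, and where 4 values stand in a row they are of controls 7, 8, 9 and 10 in that order. Nothing in the labels says whether vessels of several animals were pooled or how much surrounding tissue was kept.

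The wall of the thoracic aorta is made of an endothelial lining, a media of smooth muscle cells between sheets of elastic fibres, and an adventitia of fibroblasts, nerves and immune cells. Smooth muscle contraction rests on smooth muscle actin and myosin, and the wall's recoil on elastin and collagens. In rodents the thoracic aorta lies in perivascular fat that resembles brown adipose tissue, whose cells are rich in mitochondria and burn fat through the uncoupling protein Ucp1. In bulk samples such as these, fewer cells of a type and less RNA per cell cannot be told apart.

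The libraries held between 11760397 and 13466170 gene counts and between 1185872 and 2031376 lncRNA counts. Control 7 carried heart muscle transcripts that were at or near 0 in the other libraries, control 9 held the most transcripts of blood, nerve and lymphatic vessels, and mast cell and macrophage transcripts were lowest in control 8. No pair looked like 1 library deposited as a pair of samples, since chi-square per degree of freedom over genes was at least 63.1, which says nothing more about how alike the libraries were. The 4 Y-linked genes measured (Ddx3y, Eif2s3y, Kdm5d and Uty) had counts in all libraries, with Eif2s3y at 33, 23.9, 31 and 30.4 FPKM.

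**Figure D1:**
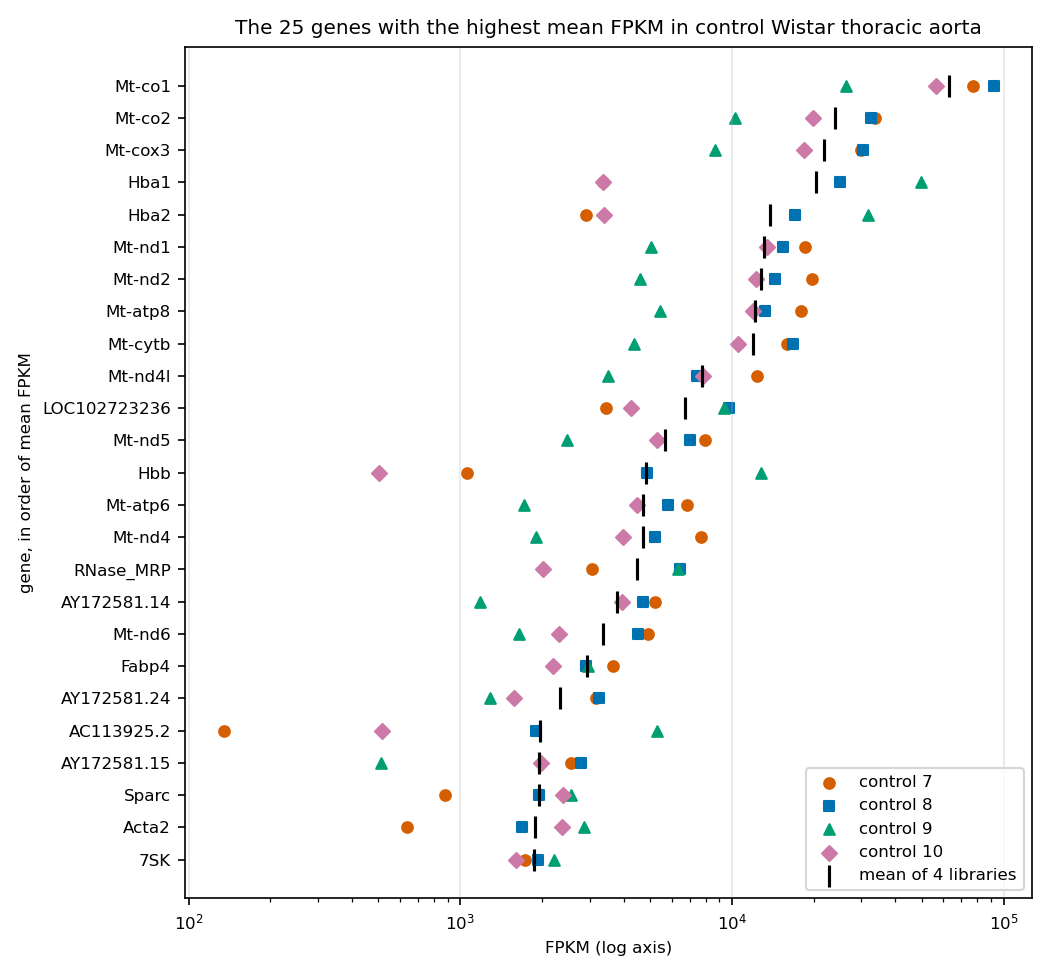
FPKM of the 25 genes with the highest mean FPKM (log axis), with 1 symbol per control library and a bar at the mean of the 4. Mitochondrially encoded genes were lowest in control 9, at 26323 FPKM for Mt-co1, while the hemoglobin genes were highest there, at 49642 FPKM for Hba1 (controls 7 and 10 coincide at Hba1).

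By mean FPKM over the 4 libraries, genes of the mitochondrial chromosome were the most abundant transcripts. The 37 genes of that chromosome took 26.8%, 27.4%, 8.27% and 18% of the gene counts (20.1% ± 9.0, SD, n = 4), and the widest 95% Wilson interval on such a share was ± 0.0255 percentage points, counting error only. Mt-co1, a subunit of cytochrome c oxidase, led with 77278, 91875, 26323 and 56206 FPKM. Mt-co2 and Mt-cox3 of the same enzyme followed with means of 24056 ± 11082 and 21818 ± 10340 FPKM (SD, n = 4). On the log2 CPM scale (counts relative to library size, here with edgeR's TMM factors), all 13 protein-coding mitochondrial genes had their lowest value in control 9, the lowest library of 27.4% of the 14570 genes that passed the minimum of 10 counts in at least 1 library. The highest was control 7 for 7 of the 13, and it was the highest library of 21.5% of all genes.

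Hemoglobin came next. The alpha chain gene Hba1 (chromosome 10, 15602794 to 15603649 in the files' coordinates; no source here names their rat build) was at 3353, 25057, 49642 and 3345 FPKM. Hba2 was at 2903, 17130, 31696 and 3372 FPKM, and the beta chain gene Hbb at 1059, 4885, 12799 and 503 FPKM. Controls 8 and 9 were thus high for every one of these genes and controls 7 and 10 low. The globin genes are close copies of each other, so how reads were divided among them is uncertain, and their sum is the safer measure: the 8 hemoglobin genes took 0.44%, 2.94%, 6.09% and 0.477% of the gene counts. Alas2 (heme synthesis in red cell precursors) at 16.3, 70.1, 253 and 18.9 FPKM and Slc4a1 (the red cell anion exchanger) at 1.95, 6.34, 29.8 and 2.16 FPKM had the same pair of libraries on top.

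The 10 most abundant genes were all mitochondrial or hemoglobin genes, and held 34.9% ± 6.8 (SD, n = 4) of the FPKM sum. The 100 most abundant held 54.1% ± 6.05. Of the gene counts, 50% came from 381 genes over all libraries, and from 285, 201, 560 and 436 genes within each. With the mitochondrial chromosome left out, 822 genes were needed, and 865, 722, 730 and 821 within each library. At the other end, 11805 genes reached 1 FPKM in all 4 libraries and 671 genes had no count in any. A level of 1000 FPKM was reached in all 4 libraries by 20 genes.

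Several of the remaining leaders were short structural RNAs. LOC102723236, the 7SL RNA of the signal recognition particle, was at 3435, 9762, 9366 and 4250 FPKM. RNase_MRP, the RNA of an enzyme that processes ribosomal RNA, was at 3044, 6457, 6331 and 2017 FPKM. Both were higher in controls 8 and 9 than in the other libraries, whereas 7SK, a regulator of transcription elongation, kept within 1734, 1940, 2210 and 1600 FPKM.

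Among nuclear protein-coding genes outside hemoglobin, Fabp4, the fatty acid carrier of adipocytes, ranked first with 3642, 2909, 2953 and 2200 FPKM (2926 ± 589, SD, n = 4). Sparc, a matricellular protein that binds collagen, followed with 881, 1949, 2554 and 2396 FPKM. Acta2, the smooth muscle alpha-actin of the aorta (chromosome 1, 252537615 to 252550394), was at 636, 1684, 2861 and 2366 FPKM (1887 ± 963, SD, n = 4). For both Sparc and Acta2, control 7 lay well below the other libraries. Tagln, an actin-binding protein of smooth muscle, ranked 28th with 475, 1582, 2448 and 1911 FPKM. Thrsp, a regulator of fat synthesis, ranked 30th with 2135, 1682, 866 and 1329 FPKM. The labelled tissue was thus borne out by its smooth muscle markers, which stood beside adipocyte genes of the same order of level.

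Smooth muscle. Of the 25 contractile genes listed, 24 were matched, and all 24 passed the minimum. Their mean log2 CPM was 7.60, 8.61, 9.0 and 8.71. For 22 of 24 the lowest library was control 7, where 26.8% of all genes had their lowest value, and for 17 of 24 the highest was control 9, the highest library of 31.4% of all genes. Myh11, the smooth muscle myosin heavy chain, was at 311, 350, 747 and 749 FPKM, so that controls 7 and 8 were low and controls 9 and 10 high. Csrp1, a cytoskeletal LIM protein, was at 235, 543, 821 and 583 FPKM, and Myl9, a myosin light chain, at 215, 562, 785 and 557 FPKM. The widest member was Actg2, the enteric smooth muscle actin, with 30.1, 89.2, 282 and 89.4 FPKM. The list took 0.851%, 1.57%, 2.65% and 2.26% of the counts.

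Regulators of the contractile genes were low in level. Srf, the transcription factor that binds the CArG box of muscle promoters, was at 9.81, 12.9, 18.6 and 16.1 FPKM. Its cofactor Myocd, named after its values were seen, was at 6.73, 9.78, 20.4 and 14.9 FPKM. Both had the order of Acta2, with control 9 highest and control 7 lowest. Among 14 genes linked to the synthetic state of smooth muscle, Vim, an intermediate filament, was at 646, 844, 1063 and 638 FPKM and Mgp, an inhibitor of calcification, at 298, 609, 582 and 568 FPKM.

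The promoter window of 33469 rat genes in RefSeq (build GRCr8, 250 bases before to 50 after the start) was searched for the CArG box, which is CC, then 6 letters that are each A or T, then GG, and reads the same on both strands as a pattern. It stood in 548 promoters, or 1.64%. It stood in 1 of 19 promoters of the contractile list (Srf itself), in 3 of 5 of the actin family (Acta1, Actg1 and Actc1), in 4 of 15 of the immediate early list (Egr1, Egr2, Klf6 and Zfp36), and in none of the 18 collagen, 12 brown adipocyte or 24 respiratory chain promoters. A match is a description of letters and not of binding, and no match says only that these letters are not in the window. The 150 bases before the start of 4 of these genes are shown, as members of the contractile, actin and immediate early lists whose window holds the pattern; they are not the most abundant contractile genes. Capitals mark the CArG box. They lie at chr9:21923926-21924075 on the plus strand (Srf), chr19:68784195-68784344 on the minus strand (Acta1), chr10:106120952-106121101 on the minus strand (Actg1) and chr18:26736928-26737077 on the plus strand (Egr1).
Srf: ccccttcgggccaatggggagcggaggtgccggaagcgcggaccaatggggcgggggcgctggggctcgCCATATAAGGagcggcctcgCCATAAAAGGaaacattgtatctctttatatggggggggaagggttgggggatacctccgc
Acta1: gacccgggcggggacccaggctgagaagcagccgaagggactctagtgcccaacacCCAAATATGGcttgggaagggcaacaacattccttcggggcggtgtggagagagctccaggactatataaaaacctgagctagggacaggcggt
Actg1: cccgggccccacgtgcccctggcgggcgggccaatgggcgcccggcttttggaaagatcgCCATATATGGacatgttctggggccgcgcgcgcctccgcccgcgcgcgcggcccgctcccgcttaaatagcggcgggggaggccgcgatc
Egr1: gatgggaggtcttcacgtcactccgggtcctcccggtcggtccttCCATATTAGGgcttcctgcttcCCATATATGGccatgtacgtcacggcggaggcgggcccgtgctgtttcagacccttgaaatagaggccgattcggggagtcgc
The Srf window holds the pattern at 81 and 61 bases before the start and the Egr1 window at 105 and 83, while Acta1 and Actg1 hold it once, at 94 and 90.

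The 6 actins spanned a wide range of levels. Acta2 and Actb, a cytoplasmic actin, were the most abundant, with Actb at 852, 1372, 1986 and 1491 FPKM. Per length, the ratio of Acta2 to Actb was 0.747 in control 7 and 1.23, 1.44 and 1.59 in the others. Actg1, the other cytoplasmic actin, was at 13, 21.4, 42.7 and 39.5 FPKM, far below Actb. Acta1, the skeletal muscle actin, was at 2.07, 16.5, 28.8 and 22.2 FPKM, low in control 7 and in the order of Acta2 throughout. Actc1, the cardiac actin, ran the other way, with 43 FPKM in control 7 and 2.91, 4.57 and 3.8 in the rest. The actin genes are close paralogs, so reads may have been divided among them in ways the sources used here do not give.

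Matrix genes ranked high. Col3a1, a fibrillar collagen, was at 932, 797, 1653 and 1748 FPKM, and Col1a1, the main chain of type I collagen, at 332, 275, 537 and 778 FPKM. Controls 9 and 10 were above controls 7 and 8 for both, and the ratio of Col1a1 to Col3a1 kept between 0.325 and 0.445. Of 20 collagens, 13 had their lowest log2 CPM in control 8, the lowest library of 29.9% of all genes. The list mean was highest in control 9 (8.21) and next in control 10 (8.18), an order that turned round with hemoglobin and mitochondrial genes left out of the scaling. Eln, elastin (chromosome 12, 24978483 to 25021863), was at 503, 1249, 943 and 2266 FPKM, highest in control 10. Of 22 elastic fibre genes, 12 had their highest value in control 10, the highest library of 17.9% of all genes. Fbn1, the microfibril protein fibrillin, was at 119, 91.8, 150 and 207 FPKM, and Fbln5, which assembles elastic fibres, at 43.5, 111, 81.3 and 119 FPKM.

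Proteoglycans and matricellular proteins were in part lowest in control 7. Bgn, the small proteoglycan biglycan, was at 460, 1033, 1070 and 1244 FPKM and Nov, a CCN family protein, at 124, 513, 869 and 790 FPKM. Dcn, decorin, was lowest in control 8 instead, with 675, 418, 1833 and 863 FPKM. Itga8, an integrin chain of smooth muscle, was at 129, 245, 277 and 397 FPKM. Of 16 matrix proteases and inhibitors, 3 reached a 4-fold range between the highest and lowest library, which 9.02% of the 14570 genes did. The most abundant was Timp3, an inhibitor bound to the matrix, with 247, 242, 225 and 322 FPKM and Mmp2, a gelatinase, at 124, 123, 217 and 192 FPKM.

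The means of the fibroblast and endothelial lists shared their highest and their lowest library. The 14 fibroblast genes had a mean log2 CPM of 7.44, 6.87, 8.17 and 7.59, with 12 highest in control 9 and 12 lowest in control 8. Of all genes, 31.4% were highest in control 9 and 29.9% lowest in control 8. Gsn, an actin-severing protein abundant in fibroblasts, was at 949, 477, 2200 and 1077 FPKM and Lum, a collagen-binding proteoglycan, at 144, 127, 292 and 230 FPKM. The 18 endothelial genes spanned less, with means of 5.88, 5.60, 6.16 and 5.88. Of the 18, only 10 were highest in control 9, while 14 were lowest in control 8. Cdh5, the cadherin of endothelial junctions, was at 48.7, 23.6, 44 and 42 FPKM, Tek, the angiopoietin receptor, at 36, 18.4, 43 and 33.6 FPKM, and Ptprb, an endothelial phosphatase, at 51.8, 36.3, 67.9 and 55.3 FPKM. Of the endothelial list 0 genes reached a 4-fold range, which 9.02% of the 14570 genes did. The list is short, so this count does not set it apart. Pericyte genes did not share 1 order, with 5 of 10 lowest in control 7 and 3 in control 8. Control 7 was the lowest library of 26.8% of all genes. The most abundant pericyte gene was Rgs5, a regulator of G protein signalling, with 117, 70.2, 245 and 108 FPKM.

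**Figure D2:**
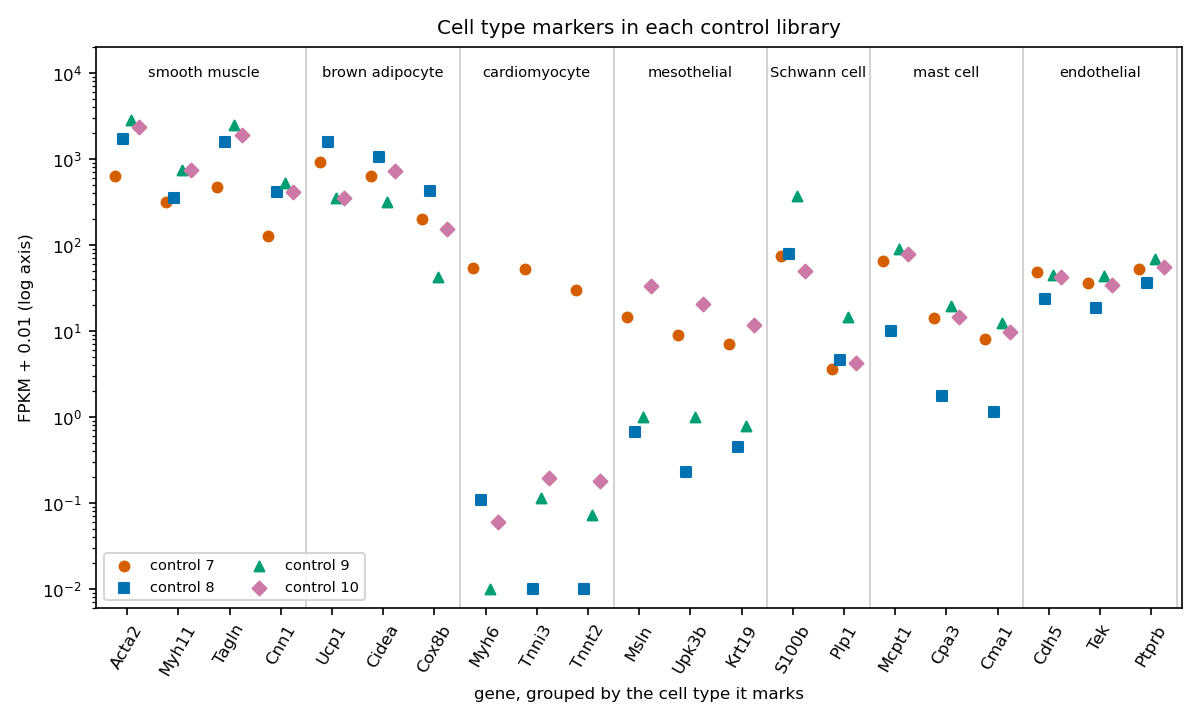
FPKM plus 0.01 (log axis) of 21 marker genes in each control library, grouped by the cell type they mark. Cardiomyocyte markers stood in control 7 alone, mesothelial markers in controls 7 and 10, and mast cell markers were lowest in control 8.

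Brown adipocyte genes were abundant, and 8 of 10 were highest in control 8, the highest library of 29.2% of all genes. Of the 10, 8 were lowest in control 9, the lowest library of 27.4% of all genes. Ucp1 (chromosome 19, 24456976 to 24464807) was at 918, 1588, 347 and 348 FPKM (800 ± 590, SD, n = 4). Cidea, a lipid droplet protein of brown fat, was at 627, 1042, 313 and 728 FPKM, and Cox8b, a cytochrome oxidase subunit of brown fat and heart, at 200, 426, 42.4 and 154 FPKM. Control 8 was the highest and control 9 the lowest or level with the lowest for these 3 genes. The list of 10 genes that passed the minimum, of 11 matched, had a mean log2 CPM of 6.66, 7.07, 4.94 and 5.90. Per length, the ratio of Acta2 to Ucp1 was 0.693, 1.06, 8.25 and 6.79, so that actin exceeded Ucp1 several-fold in controls 9 and 10 and not in control 7. Fabp3, a fatty acid carrier of brown fat and heart, was the widest member with 101, 45.7, 7.72 and 9.48 FPKM, highest in the library that held heart transcripts; the part of those transcripts in its level was not tested.

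Genes that all fat cells share varied less than the brown fat genes and not in their order. Lpl, the lipase that frees fatty acids from lipoproteins, was at 1021, 803, 902 and 570 FPKM, and Plin1, the lipid droplet coat protein, named after its values were seen, was at 575, 475, 458 and 436 FPKM. The 15 general adipocyte genes had a mean log2 CPM of 9.21, 9.32, 9.16 and 8.70; the lowest library was control 10 under every scaling, while the highest was control 8, or control 9 on library totals and on FPKM. Some general adipocyte and lipogenic genes were highest in control 9. Adipoq, the adipokine adiponectin, also named after its values were seen, was at 292, 228, 632 and 198 FPKM. Car3, a carbonic anhydrase of fat and muscle, was at 797, 363, 3745 and 910 FPKM and Scd1, a fatty acid desaturase, at 177, 92.4, 669 and 38 FPKM. The ratio of Ucp1 to Adipoq was 3.15, 6.95, 0.548 and 1.76.

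Genes of energy metabolism had the same highest and lowest library as the brown adipocyte list. The 20 fatty acid oxidation genes had a mean log2 CPM of 8.67, 8.89, 7.02 and 8.29, with 15 highest in control 8 and 19 lowest in control 9. Of all genes, 29.2% were highest in control 8 and 27.4% lowest in control 9. Acadl, an acyl-CoA dehydrogenase, was at 991, 903, 285 and 661 FPKM, and Acadm, its medium-chain relative, at 621, 605, 129 and 369 FPKM. Both were highest in control 7 on FPKM and in control 8 on log2 CPM. Acaa2, the thiolase of the last step, was the widest at 354, 541, 106 and 301 FPKM. Of 26 nuclear genes of the respiratory chain, 23 were highest in control 8 and 26 lowest in control 9. Atp5b, a subunit of ATP synthase, was at 1652, 2066, 822 and 1324 FPKM and Cyc1, cytochrome c1, at 157, 233, 63.1 and 114 FPKM. Control 9 was thus the low library for the mitochondrial genes of both genomes.

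Glycolysis and fat synthesis were low in control 9 too. Of 19 glycolytic genes, 15 were lowest there, against 27.4% of all genes. Aldoa, aldolase, was at 676, 782, 344 and 507 FPKM. Fasn, fatty acid synthase, was at 644, 302, 187 and 298 FPKM, highest in control 7, and Dgat2, which makes triglyceride, at 520, 560, 124 and 289 FPKM. Of 17 lipogenic genes, 12 were lowest in control 9, while Scd1 and Elovl5, a fatty acid elongase, were highest there. Pdk4, a kinase that shuts pyruvate out of oxidation, was at 498, 485, 166 and 504 FPKM, so that 3 libraries agreed closely and control 9 was low.

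**Figure D3:**
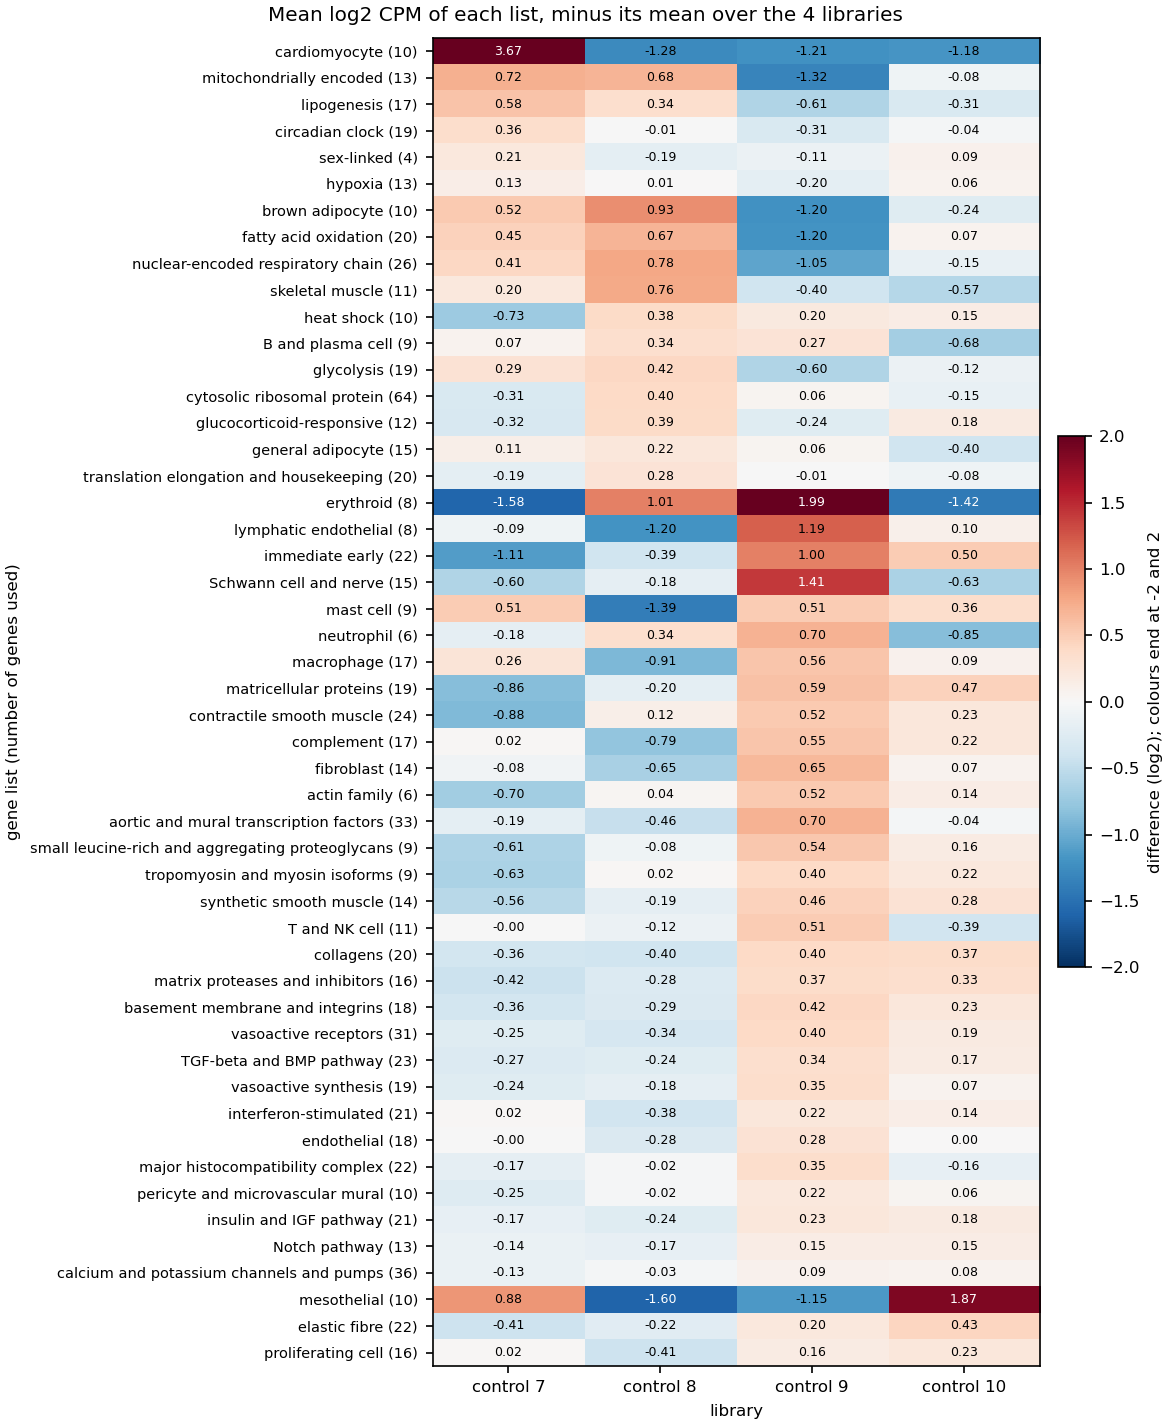
Mean log2 CPM of 50 gene lists in each control library, minus the mean of the list over the 4 libraries, with the number of genes in parentheses. Cardiomyocyte genes stood out in control 7 (mean log2 CPM 5.16 against 0.30 or less elsewhere), erythroid, nerve and lymphatic genes in control 9, and mesothelial genes in control 10.

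Several heart muscle genes had appreciable counts in control 7 alone. Of 14 matched, 10 passed the minimum, some of them only through their counts in control 7. Myh6, the atrial and rodent ventricular myosin heavy chain (chromosome 15, 33605654 to 33629699), was at 53.2 FPKM in control 7 and at 0.0987, 0 and 0.0495 in the others, or 4321 counts against 11 in the other libraries together. Tnni3, the cardiac troponin I, was at 52.6 FPKM and at 0.186 or less elsewhere. Myl7, an atrial myosin light chain, was at 23.1 FPKM and listed at 0 elsewhere, as was Sln, the atrial regulator sarcolipin, at 8.97 FPKM. Mb, the oxygen carrier myoglobin of heart and skeletal muscle, was at 97.4, 10.2, 1.14 and 1.18 FPKM, so that control 8 was above controls 9 and 10. In the same library Myl3, a ventricular myosin light chain, was at 0.741 FPKM, and Nppa, the atrial natriuretic peptide, at 0.251 FPKM. Myl3, Myl7, Sln and Nppa were named after their values were seen. The summed FPKM of the 14 cardiomyocyte genes was 272, 19.1, 34.5 and 28.3, and most of the sum in controls 8, 9 and 10 came from Ryr2, a calcium release channel, and Gja5, a connexin that arterial endothelium also uses. Cardiomyocyte genes took 0.0728% of the counts of control 7.

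Control 7 was also the low library of the contractile list, which took 0.851% of its counts against 0.0728% for the heart genes. The part of heart tissue in the contractile levels was not tested.

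Mesothelial genes, which mark the lining of the chest cavity, were present in controls 7 and 10. Msln, mesothelin, was at 14.4, 0.662, 0.988 and 33.3 FPKM. Upk3b, a uroplakin of mesothelium, was at 8.87, 0.215, 0.977 and 20.6 FPKM and Krt19, a keratin, at 6.93, 0.43, 0.78 and 11.8 FPKM. Of the 10 genes of the list, 9 reached a 4-fold range, which 9.02% of all genes did. Of the 10, 9 were highest in control 10, the highest library of 17.9% of all genes.

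Skeletal muscle genes stayed low apart from Mb and Acta1. Myl1, a fast myosin light chain, was at 3.93, 6.44, 4.32 and 3.38 FPKM. The summed FPKM of the 17 genes was 117, 46.4, 45.1 and 38, of which Mb made up most in control 7. The mean log2 CPM of the 11 that passed the minimum was 1.28, 1.83, 0.67 and 0.50, highest in control 8 instead. Of these 11, 5 were highest in control 8, the highest library of 29.2% of all genes. A 4-fold range was reached by 7 of the 11 and by 9.02% of all genes. Myod1, the muscle lineage factor, was listed at 0 in every library.

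Mast cell, macrophage and complement genes had their lowest list mean in control 8, and T cell, B cell and neutrophil genes in control 10 on log2 CPM, though the T cell list was lowest in control 8 on log2(FPKM + 1). The 9 mast cell genes had a mean log2 CPM of 2.87, 0.97, 2.87 and 2.71, and 8 of 9 were lowest in control 8. Control 8 was the lowest library of 29.9% of all genes. Mcpt1, a chymase of mast cells, was at 65.6, 9.97, 89.2 and 77.3 FPKM, and Cpa3, their carboxypeptidase, at 14.1, 1.75, 19.2 and 14.3 FPKM. Of 17 macrophage genes, 14 were lowest in control 8. Cd163, the scavenger receptor of resident macrophages, was at 28.9, 3.54, 28.7 and 21 FPKM and C1qa, a complement chain they make, at 31.5, 9.98, 57.3 and 28.4 FPKM, whereas Cd68, a lysosomal glycoprotein named after its values were seen, was at 25.9, 22.1, 22.2 and 21.5 FPKM. Cd4, which rat macrophages share with T cells, was at 29.6, 7.92, 35.7 and 26.5 FPKM, while Cd3g, a chain of the T cell receptor complex, was at 2.17, 3.31, 5.11 and 2.17 FPKM.

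Lymphocyte lists had low means over the libraries, at log2 CPM 1.48 (T and NK cell) and 1.83 (B and plasma cell). The neutrophil list was higher, at 3.14. Cd79a, a B cell receptor chain, was at 0.953, 5.79, 3.69 and 1.47 FPKM, highest in control 8. The more abundant B cell and plasma cell genes did not share that order. Igkc, an immunoglobulin light chain, was at 16.3, 9.59, 11.1 and 5.54 FPKM, and Igj, which joins immunoglobulin chains, at 12.5, 4.25, 6.05 and 3.57 FPKM. S100a8, a calcium-binding protein of neutrophils, was at 5.12, 8.12, 7.04 and 1.98 FPKM and Mpo, myeloperoxidase, at 16.7, 21.3, 56.7 and 6.62 FPKM, both lowest in control 10. The highest member of the neutrophil list was Retn, which rodent adipocytes make, at 76.5, 215, 124 and 70.8 FPKM. Complement genes were led by Cfd, a protease made by adipocytes, at 607, 497, 1205 and 903 FPKM, and C7, a late component, at 174, 56.4, 409 and 245 FPKM. Of 17 complement genes, 14 were lowest in control 8, the lowest library of 29.9% of all genes. Antigen presentation genes were highest in control 9 for 15 of 22 members, against 31.4% of all genes. B2m, the light chain of class I molecules, was at 397, 366, 656 and 341 FPKM. Cd74, the class II chaperone, was at 123, 66.8, 218 and 113 FPKM. RT1 genes are close copies, so the division of reads among them is uncertain.

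Nerve and lymphatic vessel genes were highest in control 9. S100b, a Schwann cell and adipocyte protein, was at 73.9, 78.5, 372 and 49.7 FPKM. Of 15 Schwann cell and nerve genes, 13 were highest in control 9, the highest library of 31.4% of all genes. Th and Dbh, enzymes of noradrenaline synthesis, were at 1.79 and 2.37 FPKM in control 9 (38 and 78 counts), with 0 and 1 count in the other libraries together, and were named after their values were seen. Ccl21, a chemokine of lymphatic endothelium, was at 15.1, 1.53, 76.8 and 18.1 FPKM. Mmrn1, a multimerin of the same cells, was at 10.1, 5.19, 29.1 and 8.61 FPKM, so that control 8 was low and control 9 high for both.

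**Figure D4:**
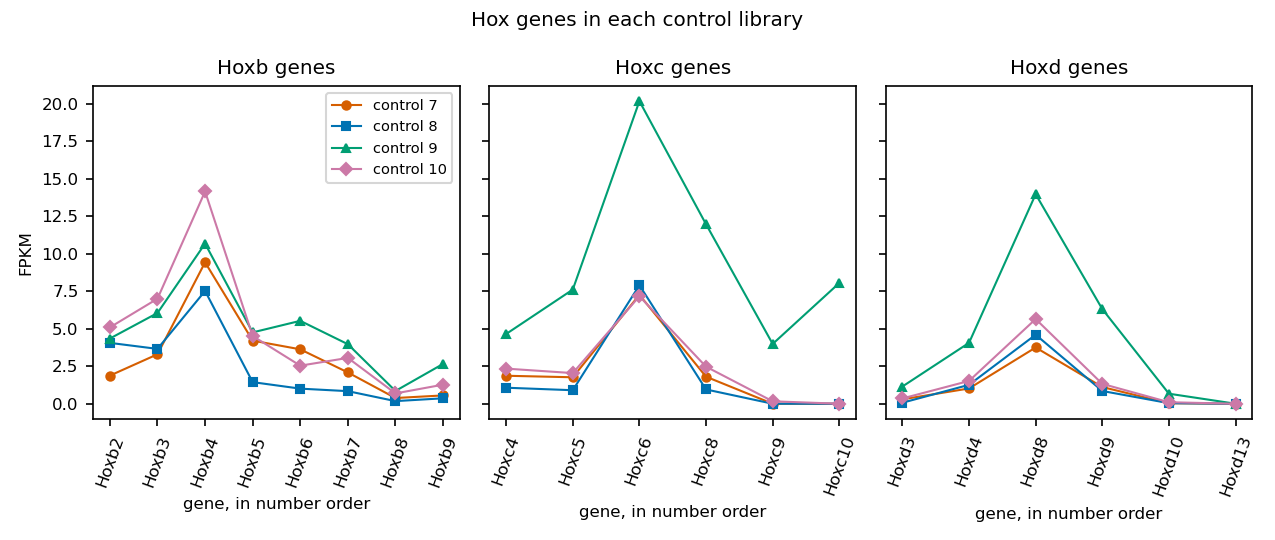
FPKM of the 20 matched Hoxb, Hoxc and Hoxd genes in each control library, in number order within a cluster. All Hoxc genes and all Hoxd genes but Hoxd13, which was listed at 0, were highest in control 9, up to 20.2 FPKM for Hoxc6, while Hoxb2, Hoxb3 and Hoxb4 were highest in control 10.

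Hox genes, whose order along a cluster follows the position of cells along the body axis, were for the most part highest in control 9. This set was looked at after values were seen. Hoxc6 was at 7.26, 7.91, 20.2 and 7.17 FPKM, Hoxc8 at 1.8, 0.953, 12 and 2.47 FPKM, and Hoxc9 at 0, 0, 3.99 and 0.163 FPKM. Hoxc10 (chromosome 7, 144577465 to 144582622) was at 8.06 FPKM in control 9, from 175 counts, and listed at 0 in the other 3 libraries. Hoxd8 and Hoxd9 were likewise highest in control 9, at 14 and 6.31 FPKM. In the Hoxb cluster, Hoxb4 was at 9.44, 7.52, 10.7 and 14.2 FPKM, so that control 10 was highest, as it was for Hoxb2 and Hoxb3. Hoxb6 to Hoxb9 were highest in control 9 and Hoxb5 was so on FPKM only, since its log2 CPM was highest in control 7. Hoxb9 was at 0.555, 0.363, 2.66 and 1.27 FPKM. Hoxd13 was listed at 0 in all 4 libraries.

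Immediate early genes, which cells switch on within minutes of a stimulus, were high in controls 9 and 10. Fos, a subunit of the AP-1 factor, was at 1.54, 4.55, 80.8 and 29.7 FPKM. Dusp1, a phosphatase of MAP kinases, was at 15.8, 47.7, 252 and 183 FPKM, and Cyr61, a CCN family protein, at 8.95, 26.3, 264 and 172 FPKM. Egr1, whose promoter is shown above with a pair of CArG boxes, was named for that and was at 12.6, 19.9, 83.2 and 69.7 FPKM. The lower of controls 9 and 10 lay above the higher of controls 7 and 8 for each of these 4 genes. Of 22 immediate early genes, 16 were highest in control 9 and 18 lowest in control 7, against 31.4% and 26.8% of all genes. Of the 22, 11 reached a 4-fold range, which 9.02% of all genes did.

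Heat shock and clock genes did not share 1 order. Hspb1, a small chaperone of smooth muscle, was at 109, 792, 571 and 476 FPKM, low in control 7. Hspa1b, an inducible chaperone, was at 0.121, 0.658, 3.31 and 1.09 FPKM, in the order of Fos. Nr1d1, a repressor of the circadian clock, was at 74, 33.1, 55.4 and 37.7 FPKM, and Ciart, a clock output gene, at 1.77, 0.217, 0.247 and 0.127 FPKM; the labels give no time of day. Mt1, a metallothionein that glucocorticoids and zinc induce, was at 202, 412, 62.5 and 327 FPKM.

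Vasoactive signalling genes were modest in level. The highest receptor was Adrb3, the beta-adrenergic receptor of fat cells, at 96.5, 88.5, 66.7 and 130 FPKM. P2rx1, an ATP-gated channel of smooth muscle, was at 9.27, 16.6, 38 and 25.7 FPKM and Adra1a, an alpha-adrenergic receptor, at 20.6, 23.4, 11.5 and 21.5 FPKM, the former highest and the latter lowest in control 9. Agt, the precursor of angiotensin, was at 82.1, 112, 43 and 44.5 FPKM. Ptgis, prostacyclin synthase, was at 22.9, 59.8, 49.2 and 59.5 FPKM, low in control 7, and Ptgs2, the inducible cyclooxygenase, at 2.53, 2.27, 18.3 and 12.2 FPKM, high in controls 9 and 10. Nos3, the endothelial nitric oxide synthase, named after its values were seen, was at 6.91, 5.39, 11.2 and 9.24 FPKM.

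In the lists of ion channels and signalling pathways, the share of genes with a 4-fold range lay on either side of that of all genes. The lists are short, so these counts do not set any of them apart. Atp2a2, the calcium pump of the sarcoplasmic reticulum, was at 77.7, 60.9, 67.1 and 71.6 FPKM and Itpr1, the inositol trisphosphate receptor, at 47.5, 50.7, 57.6 and 54.9 FPKM. Of 36 channel and pump genes, 1 reached a 4-fold range, as did 1 of 23 genes of the TGF-beta and BMP pathway and 0 of 13 Notch genes, against 9.02% of all genes, while 3 of 21 genes of the insulin and IGF pathway did. The median SD of log2 CPM was 0.40 for channels, 0.37 for TGF-beta and BMP, 0.33 for Notch and 0.46 for insulin and IGF genes, and 0.33 for all genes. Tgfb3, a TGF-beta ligand, was at 44, 73.5, 170 and 113 FPKM, while its receptor Tgfbr2 was at 76.2, 52.5, 87.8 and 76 FPKM and the shared mediator Smad4 at 37.5, 32.4, 44.7 and 40.3 FPKM. Notch3, the Notch receptor of smooth muscle, was at 16.8, 19.2, 28.1 and 30.2 FPKM. In the insulin pathway Igfbp7, an IGF-binding protein, was at 330, 658, 527 and 611 FPKM, Akt2, a kinase of insulin action in fat, at 216, 233, 152 and 174 FPKM, and Igfbp5 at 262, 65, 156 and 246 FPKM.

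Ribosomal protein genes had a median SD of log2 CPM of 0.34, near that of all genes. Of the 64 that passed the minimum, 42 had their lowest log2 CPM in control 7 and 56 their highest in control 8. Of all genes, 26.8% were lowest in control 7 and 29.2% highest in control 8. On library totals and on FPKM the list mean was highest in control 9 instead. Rpsa, the laminin receptor of the small subunit, was at 446, 715, 588 and 565 FPKM. Many ribosomal protein genes have processed copies in the genome, so their levels are uncertain. Proliferation genes were low, with Mki67, named after its values were seen, at 1.37, 0.757, 1.46 and 1.89 FPKM and Pcna, the replication clamp, at 12.2, 13, 19.6 and 11.8 FPKM.

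**Figure D5:**
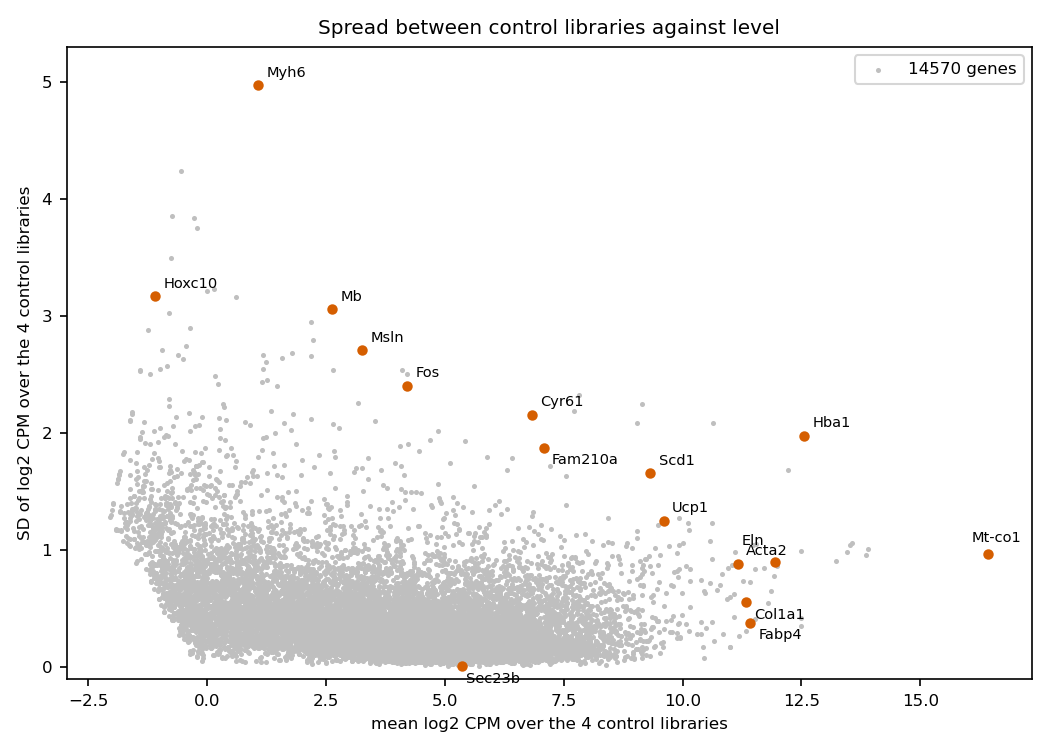
SD of log2 CPM over the 4 control libraries against mean log2 CPM, 1 point per gene for 14570 genes, with 16 genes named. Myh6 and Hoxc10 lay at the top among low genes and Hba1 among abundant ones, while Sec23b was at 0.01.

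Across all genes the control libraries were similar in rank and unequal in detail. Spearman correlations, which compare ranks, ran from 0.946 (controls 8 and 9) to 0.974 (controls 7 and 10). Pearson correlations of log2 CPM across genes ran from 0.934 (controls 7 and 9) to 0.963 (controls 7 and 10). Both are descriptions over genes, which are not replicates. The median SD of log2 CPM was 0.33, and 34.6% of genes differed at least 2-fold between the highest and lowest library. The common biological coefficient of variation, the spread between libraries beyond counting error as edgeR estimates it, was 0.325. It was 0.281 without control 9 and 0.358 without control 10. A range of at least 4-fold was found in 1314 of 14570 genes, in 796 without control 8 and in 599 without control 9. A range over fewer libraries is narrower by construction, so part of each fall comes from their number alone. The 3643 genes with the lowest mean log2 CPM held 893 of the 1314, and the 3643 with the highest held 147.

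The leading principal component, with 48.6% of the variance, set control 9 (score 63.0) against control 8 (−42.2) and control 7 (−28.2), with control 10 at 7.33. Hoxc10, Serpina12 (an adipokine), Fos and Dbh were among its 10 highest genes. The second, with 31.5%, set control 7 (−44.1) against control 8 (45.1), and Myh6, Myl7 and Tnni3 were among its lowest genes. The third, with 19.9%, set control 10 (43.5) apart, with Msln among its highest genes. The components of 4 libraries are uncorrelated by construction, so 1 library cannot lie far out on all of them. Some of the genes named here, such as Hoxc10 and Myl7, passed the minimum through 1 library alone.

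The widest and the steadiest genes were named by rule among genes with a symbol of their own and a mean log2 CPM of at least 5. The widest were Hbb-b1, Cyr61, Hbb, Hba1, Alox15, Fam210a, Nnat, Alas2, Slc4a1 and Dusp1, which were mostly red cell or immediate early genes. Nnat, neuronatin, a proteolipid of brain and fat, was at 35.5, 19.4, 338 and 20.9 FPKM. Alox15, a lipoxygenase, was at 4.43, 38.8, 90.3 and 8.73 FPKM, high in the libraries with more hemoglobin. Fam210a, a mitochondrial protein, was at 30, 24.8, 2.32 and 22.8 FPKM, low in control 9 alone. The steadiest were Sec23b, Sppl3, Nhlrc2, Appbp2, Mob4, Tnrc6b, Smad4, Rbbp7, Fig4 and Akap10, with SDs of log2 CPM of 0.03 or less. Sec23b, a coat protein of secretory vesicles, was at 14.2, 12.9, 16.9 and 15.3 FPKM; FPKM is scaled to library totals and log2 CPM to TMM factors, whose log2 values were −0.05, −0.21, 0.20 and 0.06.

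Genes that shared the order of libraries with a marker were sought among the 1314 wide genes. Besides Ucp1, 111 wide genes (8.45%) had its order, control 8 above 7 above 10 above 9, and the nearest in size were Perm1 (a regulator of muscle and fat mitochondria), Endog (a mitochondrial nuclease), Clhc1, Mtfp1 (mitochondrial fission) and Gnmt. Perm1 was at 15, 21.9, 4.88 and 5.7 FPKM. Those nearest to Acta2, whose own range was 3.76-fold, of 85 wide genes in its order (6.47%), were Igsf9b, Chrm3, Igfals, Mia and Itih1. All but Igsf9b had a mean below 1 FPKM, where few counts set the order. Igsf9b was at 1.66, 3.6, 8.16 and 6.36 FPKM. Those nearest to Col1a1, of 46 in its order, were Nkain4, Srsf12, Cilp, Pik3c2g and Thbs4; Cilp, a cartilage matrix protein, was at 5.86, 2.8, 11 and 13.8 FPKM. Likeness was the mean absolute difference of centred log2 CPM over 4 libraries, 0.11 for Perm1 and Ucp1. Over all 14570 genes the order of Ucp1 was held by 9.79%, that of Acta2 by 6.57% and that of Col1a1 by 3.96%, so the shares among wide genes were no higher than these.

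Genes found in 1 library alone were counted at 1 FPKM or more and 10 counts there and under 0.1 FPKM in the others, a rule chosen after the data were seen. Control 7 had 10, control 8 had 0, control 9 had 10 and control 10 had 2. Those of control 7 were heart or striated muscle genes for the most part, led by Myh6 and Myl7, and included Csrp3 at 5.64 FPKM and Mybpc3 at 5.12 FPKM, both parts of the sarcomere. Those of control 9 included Hoxc10, Serpina12 at 5.68 FPKM, Dbh, Th and Wnt16, a signalling ligand, at 1.95 FPKM. The leader of control 10 was Rn60_10_0890.5 at 23.3 FPKM from 458 counts, a gene with no name in the files.

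In the lncRNA table, libraries differed more than in the gene table. Its 10 most abundant transcripts held 22.9% ± 1.8 (SD, n = 4) of its FPKM sum, below the 34.9% of the gene table but above its 14.9% without mitochondrial genes. By counts the shares were 19.7% and 20.6%. In all, 8035 of 24300 transcripts reached 1 FPKM in all 4 libraries. Pearson correlations across transcripts ran from 0.790 to 0.823. At least a 4-fold range was found in 2658 of 14407 transcripts (18.4%), and in 1705 without control 9, where fewer libraries also narrow the range. The common biological coefficient of variation was 0.536, and 0.321 over transcripts with at least 10 counts in each library, against 0.287 for genes under the same filter. Of all transcripts, 75.2% overlapped a row of the gene table in position, and 634 were the same rows with the same counts, so part of this table repeats the other. The sources used here do not say whether counting used strand, so reads of a gene and of an overlapping or antisense transcript cannot be told apart.

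The most abundant transcripts clustered on chromosome 1. NONRATT003466.2 (221152844 to 221153728) was at 5872, 3951, 5200 and 6049 FPKM and NONRATT003468.2 (221156368 to 221158798) at 7388, 3161, 4431 and 6046 FPKM. On the same chromosome, NONRATT003467.2 (221153903 to 221154144) was at 1431, 678, 1090 and 1391 FPKM and NONRATT003473.2 (221200983 to 221204272) at 464, 328, 411 and 524 FPKM. All 4 were lowest in control 8 by FPKM. On log2 CPM, which is scaled to the lncRNA counts, NONRATT003466.2 and NONRATT003473.2 were lowest in control 9 instead. They were at 15.05 and 13.28 there, against 15.11 and 13.42 in control 8.

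Other leaders were copies of structural RNAs or overlapped abundant genes. ENSRNOT00000090903, the RNase_MRP row, was at 2758, 6047, 5752 and 1818 FPKM. NONRATT019765.2 overlapped Cst3, a protease inhibitor, with 315, 552, 616 and 416 FPKM, and NONRATT016627.2 overlapped S100a11 with 201, 294, 385 and 294 FPKM. NONRATT025459.2 overlapped Cs, citrate synthase, with 365, 411, 147 and 273 FPKM, low in control 9 as the nuclear genes of the respiratory chain were. NONRATT021220.2, between Asb4 and Pdk4 on chromosome 4 (30544835 to 30546060), was at 460, 365, 121 and 395 FPKM, the same 3 libraries high and control 9 low as for Pdk4. The 3 transcripts next to Il17b on chromosome 18, where RefSeq places Carmn, the host of miR-143 and miR-145 of smooth muscle, were looked up by position; the highest, NONRATT013854.2 (56970209 to 56972067), was at 74.2, 120, 212 and 231 FPKM, lowest in control 7 as the contractile genes were.

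Near-identical assembled transcripts of 1 locus sometimes traded places between libraries. MSTRG.18616.5 and MSTRG.18616.9, which start at the same base within Ppargc1b and are 15260 and 15179 bases long, were counted at 0, 3425, 1636 and 0 and at 2099, 0, 0 and 2296. Each library thus gave its counts to 1 of the pair alone. MSTRG.185.2, on chromosome 1 between 5_8S_rRNA and pRNA (11912071 to 11914300), took 38.4%, 45.2%, 98.1% and 56.8% of the counts that it shared with MSTRG.185.1, a transcript 539 bases long against 541. For such pairs the level of 1 transcript cannot be read apart from its partner.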

How the data were processed

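The authors deposited, per the file headers, raw read counts and FPKM values for every library in a gene table and a lncRNA table. Bowtie 0.12.2 and the mouse builds mm8 and mm9 stand in the submitters' processing notes without a role, and the rat build and the counting method are not named there. The source label of the control samples reads GK, while strain, group and title give control Wistar, which was followed. In the deposited tables the gene FPKM is scaled to the sum of the gene counts, whereas the lncRNA FPKM is scaled to a larger total, so levels were not compared between tables.

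Levels and ranks are FPKM as deposited. For spread, counts were scaled with TMM factors (edgeR 4.0.16 in R 4.3.3) over the 4 controls and turned into log2 CPM with a prior count of 2, for 14570 genes and 14407 transcripts with at least 10 counts in at least 1 control library. The method was tested on simulated data. With 1 group no comparison was tested and no p-value is given; the only criterion with a critical value is Dixon's, for single libraries that stand apart. Nothing in the labels says that each library came from a separate animal, so the spread may be technical in part. Wilson intervals (95%) cover counting error only.

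Genes were named by rule: the 25 with the highest mean FPKM, the 3 most abundant members and the widest member (at least 4-fold) of each list, the 10 widest and 10 steadiest genes, the 5 nearest to each marker by order, the actin family, and the 15 most abundant and 5 widest lncRNA. The text says where a gene was chosen otherwise. Genes without a row under their listed symbol, such as Pecam1, are not analysed here, and where a symbol had several rows the most abundant was used. The members and lists were chosen with earlier results of these data known. Alternatives were DESeq2 1.42.0 size factors, library totals, other filters, prior counts and FPKM thresholds, tables without mitochondrial or hemoglobin genes, and each library left out in turn. RefSeq promoters are of build GRCr8. A few further results are not reported here.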

Additional observations from a re-analysis of the deposited data

Results flagged for a closer look

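Among 277 gene lists, shares and named genes, 18 (6.5%) had 1 control library that stood apart by the Dixon test. In these, its gap to the nearest other library took up more of the range of the 4 than the 95% critical value. Chance gives this in about 1 in 20 groups that were not chosen by their values. Here some genes were named for their spread in these same libraries, and some passed the minimum through 1 library alone. The 6.5% can therefore not be set against that rate. Control 7 stood apart in 8 of them, control 8 in 5, control 9 in 5 and control 10 in 0. All values are log2 CPM.

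In control 7 the cardiomyocyte list was high at 5.16, against 0.21 to 0.30 in the others, as were Tnni3 at 5.46 (−2.67 to −1.74 elsewhere) and Actc1 at 6.06 (2.37 to 2.60). Smooth muscle and matrix genes were low in the same library. Tagln was at 9.62 (11.51 to 11.73), Srf at 5.39 (5.94 to 6.05), Acta1 at 1.70 (4.79 to 5.17), Sparc at 10.88 (12.16 to 12.21) and Nov at 8.29 (10.50 to 10.85).

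In control 8 the mast cell list was low at 0.97, against 2.71 to 2.87 in the others. Its members Mcpt1 at 3.59 (6.14 to 6.32), Cpa3 at 1.77 (4.46 to 4.74) and Cma1, a chymase, at 0.52 (3.04 to 3.43) were low there, as was Cd4 at 4.02 (5.48 to 5.76).

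In control 9 the metabolic gene Pdk4 was low at 7.83 (9.57 to 9.79), the potassium channel Kcnk3 at 7.03 (8.45 to 8.73) and Fam210a at 4.28 (7.71 to 8.22). Lyz2, the lysozyme of macrophages, was high at 9.14 (8.20 to 8.31), and Hoxc10 at 3.67, against −2.67 in each of the others, where it had no counts.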

How the results depend on the processing

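No paired analysis was possible because 1 group alone is described and no test compares groups. Counts near a threshold moved most. Genes with an at least 4-fold range numbered 517 with 10 counts asked of each library and 838 with a prior count of 5, and lncRNA transcripts 458 and 1663. Leaving out 1 library, which by itself narrows a range, gave 599 (without control 9) to 1059 genes and 1705 to 2026 transcripts. The gene coefficient of variation was 0.287 with 10 counts in each library and 0.281 to 0.358 with 1 library left out. At 2 FPKM, 4606 lncRNA transcripts were found in all libraries. Without mitochondrial genes, 822 genes held 50% of the counts, and the 10 and 100 most abundant genes held 14.9% and 31.6% of the FPKM sum. With hemoglobin left out too, chosen after seeing the data, these were 888, 7.85% and 24.6%. As shares of counts they were 20.6% and 37.4%, and 19.7% for the 10 lncRNA. Other results with 1 library left out ran from 11877 to 12237 genes and 8323 to 9318 transcripts at 1 FPKM, 318 to 438 genes for 50% of counts, 32.8% to 37.4% and 51.9% to 55.9% for the 10 and 100 leading genes, 17.7% to 24.1% mitochondrial counts and 22.3% to 23.7% for the 10 lncRNA.

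Of 50 lists, the highest library was kept by 47 with DESeq2 size factors, 41 on library totals and 40 on log2(FPKM + 1), and the lowest by 50, 41 and 42. The range of a list mean moved by more than its spread in 11 lists on totals and in 6 on log2(FPKM + 1). Leaving out control 9 moved the SD of 84 of 226 named genes. Without mitochondrial genes their own list has no value. Genes in 1 library alone numbered 17, 1, 22 and 10 with no minimum count. Low genes are limited by depth, since 10 counts in a library are the minimum used.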
